A study of Mus musculus with 216 samples.

Results

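The regions described here were H3K9me3 domains that met at least 1 noncoding gene or pseudogene and no protein-coding gene. A domain is a stretch of the genome that the authors called as enriched for trimethylated histone H3 lysine 9. Of 34389 deposited domains on 17 mouse autosomes (1 to 7, 9, 10, 12 to 19), 3957 met a GENCODE vM21 gene by at least 1 bp while none of the genes they met was typed as protein-coding. The whole table held 43039 domains. The 3957 domains covered 19.6 Mb of the 137.3 Mb in all domains of these chromosomes, and none was chosen by its decay class. The study used mouse embryonic stem cells of the line dTKO, whose genotype is given as Suv39h1fl/fl ; Suv39h2-/- ; Setdb1fl/fl, so every sample carried the deletion of Suv39h2 and the floxed alleles. The cells received 100 µg/ml auxin together with 0.5 µM dTAG13, compounds that trigger the degradation of tagged proteins, and chromatin was collected at 0, 1, 3, 12, 24 and 48 h, with 0 h as the baseline. H3K9me3 and HP1β were measured by ChIP-seq with a Drosophila chromatin spike-in and matched inputs, in 216 runs, 54 of each kind. Each kind had 9 runs per time, labelled as 3 replicates of 3 runs. The labels describe 1 line, so no other clone stands beside it, and a domain table cannot be checked against markers of embryonic stem cells.

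The authors placed each domain in 1 of 4 classes by its decay over the time course, named fast, intermediate, slow and residual. The table holds 1 class per domain and no value per culture, library or time, so the depth behind a class is unknown and no class share has an error between cultures. Differences between sets of domains are therefore given as counts with their spread over chromosomes and were not tested. The sources used here do not give the limits between the classes, nor whether residual domains decayed more or less than slow ones.

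H3K9me3 marks silent chromatin over repeats, retroviral insertions and some gene clusters. SETDB1 places the mark on retroviral elements, where KRAB zinc finger proteins bring it through the corepressor TRIM28, while the SUV39H enzymes act mainly at satellite repeats and interspersed elements. HP1 proteins bind the mark. Pseudogenes are disabled gene copies: processed pseudogenes arise when a spliced mRNA is copied back into DNA by the machinery of LINE elements, and unprocessed pseudogenes arise by duplication of a gene and keep its introns. Long intergenic and antisense RNA genes are often built in part from retroviral sequence. Many entries annotated as small RNA genes come from automatic matching to known RNAs and include copies that transposition has spread.

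The domains were split by the types of all genes they met. Pseudogenes alone accounted for 1219 domains (30.8%), lincRNA or antisense genes alone for 2036 (51.5%) and small RNA genes alone for 127 (3.21%). A further 114 domains met only TEC genes, which are transcribed regions to be experimentally checked, 233 met other long noncoding genes, 12 met immunoglobulin or T cell receptor segments, and 216 met genes of several groups.

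Of 184 small RNA genes met, 121 belonged to a family of at least 2 annotated genes. Examples are shown because copies that differ at few bases lay in domains of different classes. All bases are from the GRCm38.p6 genome, in the direction of the gene. Capitals mark bases that differ from, or lie outside, the majority sequence of all annotated copies on the 17 autosomes. Gm23936 lay in a fast domain of 1.8 kb at chr4:120837488-120837597, Gm23243 in an intermediate domain of 0.9 kb at chr5:12940370-12940479, and Gm26443 in a slow domain of 18.3 kb at chr7:33808117-33808226. These 3 belong to a family of 90 annotated genes with a median length of 110 bases.
Gm23936: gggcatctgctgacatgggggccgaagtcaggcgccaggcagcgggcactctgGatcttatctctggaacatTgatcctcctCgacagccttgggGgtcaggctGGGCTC
Gm23243: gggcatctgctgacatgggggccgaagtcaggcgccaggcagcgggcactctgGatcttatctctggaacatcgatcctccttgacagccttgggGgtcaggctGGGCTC
Gm26443: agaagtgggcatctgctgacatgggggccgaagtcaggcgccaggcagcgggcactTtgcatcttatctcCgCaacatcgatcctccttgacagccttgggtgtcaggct

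Another family of 14 genes has Mir8117 as its named member. Gm27525 lay in an intermediate domain at chr15:22274070-22274176 and Gm27704 in a slow domain at chr13:61336455-61336561.
Gm27525: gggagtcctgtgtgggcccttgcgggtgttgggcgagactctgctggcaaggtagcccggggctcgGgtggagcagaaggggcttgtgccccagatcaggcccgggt
Gm27704: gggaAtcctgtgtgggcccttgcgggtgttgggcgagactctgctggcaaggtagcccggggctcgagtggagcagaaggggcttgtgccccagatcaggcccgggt

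A family of 8 genes matched the mRNA of cytoplasmic gamma-actin, Actg1, at up to 98.8% of bases, and that of beta-actin, Actb, at up to 89.3%. Gm25032 lay in an intermediate domain at chr9:39075411-39075494, Gm23374 in a slow domain at chr16:64918222-64918305, and Gm22801 in a residual domain at chr4:103564203-103564286.
Gm25032: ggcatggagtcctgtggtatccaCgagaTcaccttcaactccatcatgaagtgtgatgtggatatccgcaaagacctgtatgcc
Gm23374: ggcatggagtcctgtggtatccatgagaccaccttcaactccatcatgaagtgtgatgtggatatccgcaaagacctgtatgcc
Gm22801: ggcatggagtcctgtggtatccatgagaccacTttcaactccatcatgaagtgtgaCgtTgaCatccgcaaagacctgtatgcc

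Copies of the Obox4 pseudogenes are shown because all of the domains on them that met no coding gene were in a single class. Obox4 belongs to a family of oocyte-specific homeobox genes. The stretch of 100 bases with most differences is given on the plus strand. The most distant copies are Obox4-ps26 (chr7:15343543-15343642) and Obox4-ps36 (chr7:14767748-14767847). Obox4-ps18 (chr7:15208326-15208425) and Obox4-ps19 (chr7:15219656-15219755) are a pair without a difference at aligned bases. Gaps were not counted, and these 2 genes are 1714 and 1717 bases long. Capitals mark bases that differ from the majority of the 14 copies in these domains.
Obox4-ps26: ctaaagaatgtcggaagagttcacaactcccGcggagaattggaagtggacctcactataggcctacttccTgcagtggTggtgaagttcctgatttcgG
Obox4-ps36: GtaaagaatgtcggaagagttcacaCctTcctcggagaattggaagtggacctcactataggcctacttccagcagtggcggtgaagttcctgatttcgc
Obox4-ps18: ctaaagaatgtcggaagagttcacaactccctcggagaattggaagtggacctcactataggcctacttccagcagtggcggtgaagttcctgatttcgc
Obox4-ps19: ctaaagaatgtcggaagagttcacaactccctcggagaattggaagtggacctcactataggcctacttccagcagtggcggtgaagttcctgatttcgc

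Single-copy residual and fast domains are shown by the 180 bases at their middle, on the plus strand, with CpG dinucleotides in capitals. They were chosen after the classes had been seen. Pax6os1, a transcript antisense to the eye and brain regulator Pax6, had a residual domain (bases from chr2:105665761-105665940). So did Nkx2-2os, which lies beside the neural regulator Nkx2-2 (chr2:147197461-147197640). Neat1, the RNA scaffold of nuclear paraspeckles, had a fast domain (chr19:5838811-5838990).
Pax6os1: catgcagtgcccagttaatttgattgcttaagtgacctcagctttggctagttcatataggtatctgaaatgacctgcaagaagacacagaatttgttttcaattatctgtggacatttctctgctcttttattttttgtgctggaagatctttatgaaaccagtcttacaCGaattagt
Nkx2-2os: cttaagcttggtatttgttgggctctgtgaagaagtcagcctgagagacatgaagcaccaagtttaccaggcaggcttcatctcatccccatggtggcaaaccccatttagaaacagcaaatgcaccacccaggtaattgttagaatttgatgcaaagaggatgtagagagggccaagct
Neat1: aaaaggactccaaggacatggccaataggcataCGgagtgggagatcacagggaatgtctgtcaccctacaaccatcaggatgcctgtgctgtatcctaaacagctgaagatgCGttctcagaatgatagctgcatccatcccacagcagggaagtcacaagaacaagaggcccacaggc

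Retroviral primer binding sites, the 18 bases where a host tRNA starts reverse transcription, are shown because the slow share of domains is reported by the kind of site. They were derived from annotated tRNA genes, and the commonest of each kind in these domains is printed. Intracisternal A particles use the phenylalanine site and murine leukaemia viruses the proline site.
Phe: tggtgctgaaacccggga
Pro: tgggggctcgtccgggat
Gly: tggtgcattggccgggaa
Ile: tggtggcccgtacgggga
Gln: tggaggtcccaccgagat

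Noncoding-only domains had a lower share of intermediate and higher shares of slow and residual domains than the other domains. At the width distribution of all domains, however, their slow share was 17.8%, against 18.2% in the other domains. The residual share at these widths was 3.54%, against 2.10% in the other domains. Of the 3957, 125 were fast (3.16%, against 2.93% of all 34389 domains), 2880 intermediate (72.8%, against 76.7%), 817 slow (20.6%, against 18.1%) and 135 residual (3.41%, against 2.25%). Per chromosome, the slow share averaged 20.7% ± 2.56 in noncoding-only domains and 17.9% ± 1.62 in the other domains (SD over 17 chromosomes), and it was higher in 14 of 17. The intermediate share averaged 72.9% ± 3.43 in noncoding-only domains and 77.1% ± 1.88 in the other domains, and it was lower on each of the 17 chromosomes. The residual share averaged 3.11% ± 2.12 in noncoding-only domains and 2.12% ± 0.505 in the other domains and was higher on 12 chromosomes. Domains on a coding gene had a higher residual share still, with 387 of 8201 (4.72%), and domains on no gene had 252 of 22231 (1.13%).

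**Figure D1:**
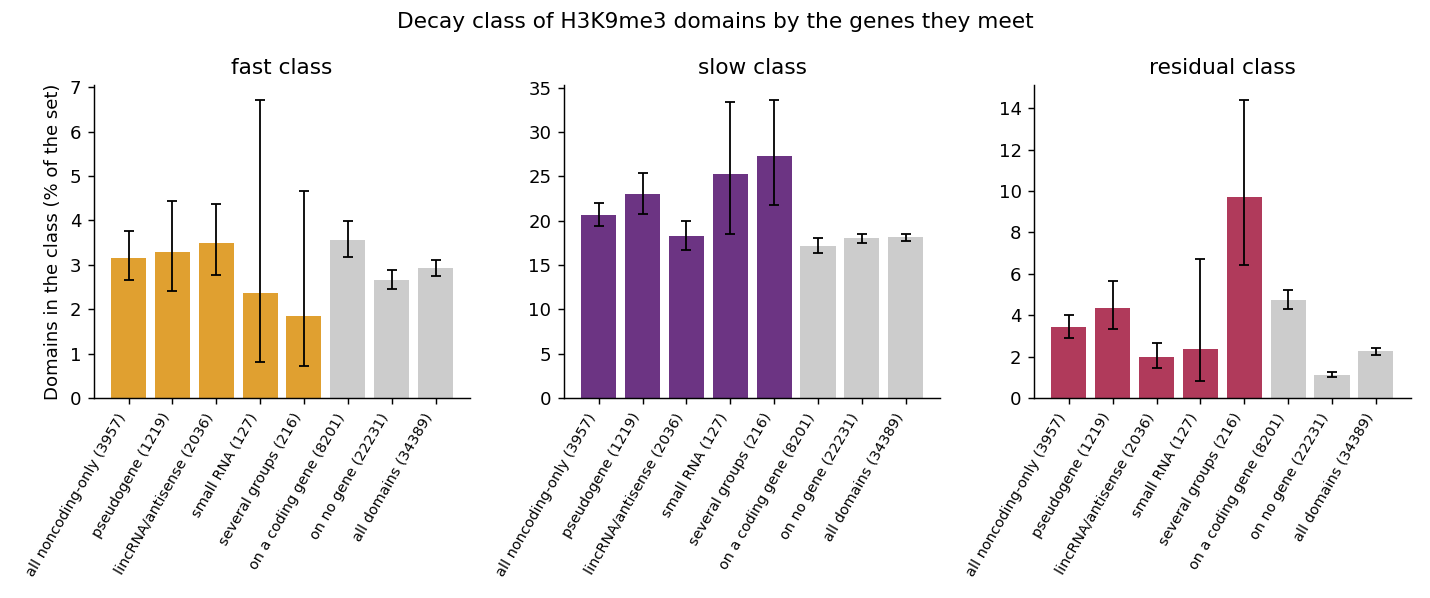
Share of domains in the fast, slow and residual classes (y axis, percent of the set; bars start at 0) for noncoding-only domains and their groups (coloured) and for reference sets (grey), with the number of domains in brackets. Error bars are 95% Wilson intervals, which cover counting only. The residual bar of domains on several groups stands at 9.72%, and that of all domains at 2.25%.

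The groups differed in their class shares. Pseudogene domains were slow in 280 of 1219 cases (22.97%) and residual in 53 (4.35%). LincRNA/antisense domains were slow in 372 of 2036 cases (18.3%) and residual in 40 (1.96%), both close to the shares of all domains. Small RNA domains were slow in 32 of 127 cases (25.2%) and residual in 3 (2.36%). The fast share was 3.28% in pseudogene domains, 3.49% in lincRNA/antisense domains and 2.36% in small RNA domains, where it rests on 3 domains. Domains on several groups were slow in 59 of 216 cases (27.3%) and had the highest residual share of these sets, with 21 domains (9.72%). TEC domains had the highest slow share, with 34 of 114 (29.8%), which was 13.3% at the widths of all domains.

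Per chromosome, the slow share of pseudogene domains averaged 24.2% ± 7.32 and was above that of the other domains on 14 of 17 chromosomes. That of lincRNA/antisense domains averaged 18.1% ± 3.23 and was above on 8 and below on 9. The residual share of pseudogene domains averaged 3.38% ± 2.73, from 0 to 11.4%, so it varied between chromosomes by more than its distance to the 2.12% ± 0.505 of the other domains (SD over 17 chromosomes in each case).

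Width went with class in each group. Pseudogene and small RNA domains had a median width of 4.2 kb and lincRNA/antisense domains of 3.0 kb, against 3.0 kb for all domains. Among pseudogene domains, 5.36% of those up to 1.5 kb were slow and 50.3% of those over 12 kb were. Among lincRNA/antisense domains the same bins gave 6.98% and 51.5%, and among all domains 7.31% and 56.2%. When each group was given the width distribution of all domains, the slow share became 16.5% in pseudogene domains, 18.3% in lincRNA/antisense domains, 17.1% in small RNA domains, 13.3% in TEC domains and 19.7% in domains on several groups, against 18.1% in all domains. The slow shares of pseudogene, small RNA and TEC domains were thus below that of all domains when standardised over 5 width bins. The bins held 15 to 45 small RNA and 12 to 36 TEC domains each, and the standardised shares have no interval. The residual share of pseudogene domains was 4.94% after the same step, against 2.25% in all domains. No noncoding-only domain over 12 kb was fast, out of 290, and 1 of 1200 of all domains over 12 kb was.

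**Figure D2:**
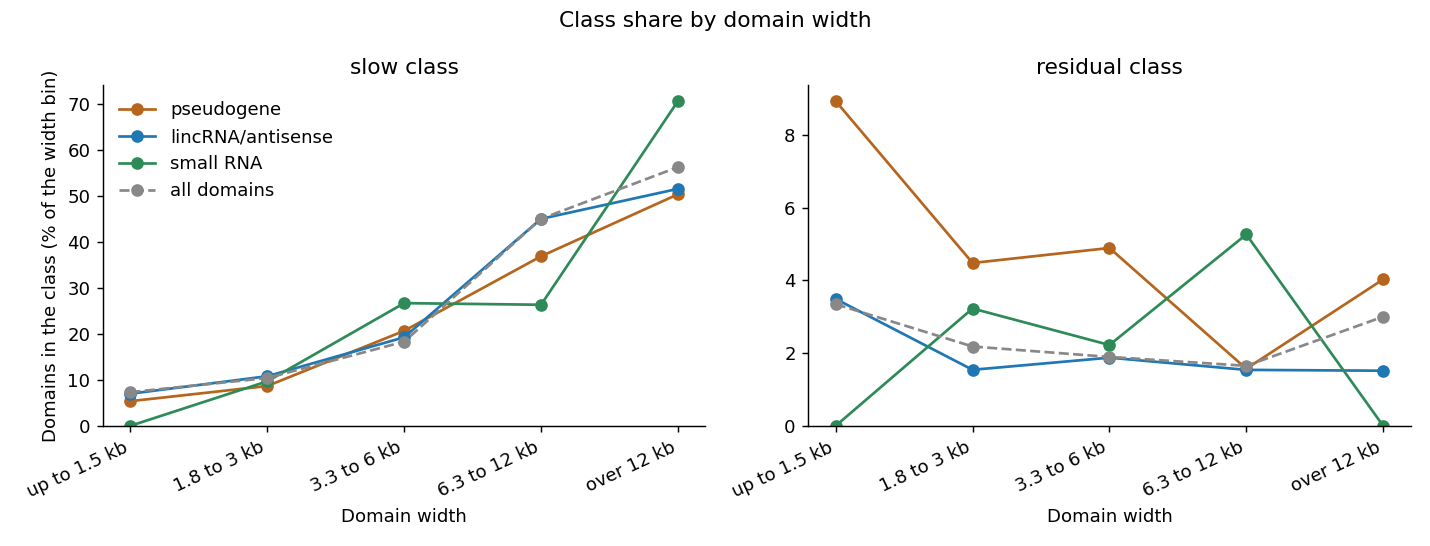
Share of slow (left) and residual (right) domains (y axis, percent of the domains in a width bin) by domain width (x axis, 5 bins) for pseudogene, lincRNA/antisense and small RNA domains and, dashed, all domains. The slow share climbs with width in each set except from the 3.3 to 6 kb bin to the 6.3 to 12 kb bin of small RNA domains, and the residual share of pseudogene domains is highest, 8.93%, in the narrowest bin.

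Processed pseudogenes, which are retrotransposed mRNA copies, and unprocessed ones had similar slow shares. Domains on processed pseudogenes alone were slow in 163 of 742 cases (21.97%) and residual in 26 (3.50%). Domains on unprocessed pseudogenes alone were slow in 97 of 425 cases (22.8%) and residual in 24 (5.65%), of which 14 lay on Obox4 copies. In all, 1304 of 10651 annotated pseudogenes on these chromosomes were met, and 681 of them lay wholly inside the domains.

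The receptor and enzyme families of pseudogenes are given by counts, to be read beside the 76.7% intermediate, 18.1% slow and 2.25% residual of all domains. Vomeronasal receptor pseudogenes, relics of pheromone receptor genes, were met in 45 of 228 cases, and their 57 domains comprised 43 intermediate, 12 slow and 2 residual ones. Vmn2r-ps26 on chromosome 5 had 27000 bp in a slow domain and 367 bp in an intermediate one, together 75.7% of its body. Vmn2r-ps54 on chromosome 7 met 4 domains, all intermediate. Olfactory receptor pseudogenes were met in 17 of 249 cases, with 15 intermediate and 2 slow domains. Cytochrome P450 pseudogenes, relics of a family of drug and steroid oxidases, were met in 18 of 30 cases, with 17 intermediate and 5 slow domains. Cyp2j14-ps had 12600 bp in an intermediate domain and Cyp2b27-ps 7500 bp in a slow one. Ribosomal protein pseudogenes, a class of processed copies, were met in 12 of 231 cases, with 7 intermediate and 5 slow domains. Major urinary protein pseudogenes were met in 6 of 26 cases, with 2 intermediate and 3 slow domains.

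Several pseudogenes without a family symbol spanned domains of several classes. Gm49329 on chromosome 12, a transcribed unprocessed pseudogene of 164877 bp, met 8 domains and had 42300 bp in slow, 26067 bp in intermediate and 900 bp in fast ones. Gm20474, also on chromosome 12, had a fast domain of 6.3 kb between a slow domain of 6.0 kb and a slow domain of 1.2 kb, with an intermediate domain of 9.3 kb beyond. At most 4.76% of the 31-mers in these 4 domains were found once in the genome. Zfp125, annotated as a transcribed unprocessed pseudogene, had 28800 bp in a single intermediate domain. MHC (11 annotated), keratin (3), histone (6) and serpin (7) pseudogenes and those of the two-cell stage families (2) had 0 domains in this set. Of all annotated pseudogenes 12.2% were met, and lists this short can give 0 at that share.

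Long noncoding genes were met mainly in their introns, but the intron share of their bodies was not computed for comparison. The lincRNA and antisense genes met had a median length of 29320 bp, against 6942 bp for those annotated. Of the 2036 lincRNA/antisense domains, 1367 (67.1%) met only introns, 370 (18.2%) met an exon without a start site, and 299 (14.7%) covered a transcript start. The slow share was 17.8% in the first, 20.5% in the second and 17.4% in the third set, and the fast share 3.07%, 4.32% and 4.35%. In all, 1419 of 7241 lincRNA and antisense genes were met. The lincRNA with most slow sequence, C230088H06Rik on chromosome 4, met 14 domains and had 88800 bp in slow, 15300 bp in residual and 1500 bp in intermediate ones. The lincRNA with most intermediate sequence, 1700030N03Rik on chromosome 19, met 11 domains and had 45330 bp in intermediate ones.

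Of the 2036 lincRNA/antisense domains, 71 were fast (3.49%, against 2.93% of all domains), with a median width of 2.4 kb. The genes named first hold the most fast sequence, so their domains are among the longest. Gm32772 and Gm32846, neighbouring lincRNAs on chromosome 7, had 14700 bp and 12000 bp in 4 fast domains of 2.4 to 9.6 kb. Gm33148, a lincRNA near the imprinted H19, had a fast domain of 5.4 kb at chr7:142599001-142604400, in which all sampled 31-mers were found once. Its other domain, of 7.5 kb, was intermediate. Among the 30 fast noncoding-only domains with at least 90% unique 31-mers were those on Neat1, Miat, a long noncoding RNA of heart and brain, Junos, which is divergent from Jun, and Six3os1, a transcript next to the forebrain regulator Six3. These 4 were picked after their classes had been seen.

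Of the imprinted and pluripotency-associated RNAs named by the rule, Snhg14, Airn and Platr16 met domains of several classes. Platr2 met 4 domains of a single class. H19 and Platr28 met 1 domain each, which allows only 1 class. Snhg14, the host transcript of the snoRNAs of the Prader-Willi region, had 9 domains over its 667836 bp, of which 5 were intermediate, 3 slow and 1 residual. The residual domain, of 0.9 kb at chr7:59771101-59772000, also held the snoRNA gene Gm22128 and had 0 unique 31-mers. Airn, the antisense RNA that silences Igf2r, had an intermediate domain of 7.2 kb and a slow domain of 1.5 kb. H19 lay wholly inside an intermediate domain of 9.9 kb, which also held Mir675. Of 25 pluripotency-associated transcripts (Platr), 5 were met, in 7 intermediate, 1 slow and 1 residual domains. Platr2 had 4 intermediate domains, Platr28 a slow one of 11.7 kb, and Platr16 a residual one of 23.4 kb that ran into the pseudogenes Gm13230 and Gm13223. Hoxa11os, antisense to Hoxa11, met an intermediate domain with 299 bp.

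The list of 231 opposite-strand transcripts had 25 genes in these domains, and their 42 domains comprised 2 fast, 25 intermediate, 8 slow and 7 residual ones. The residual share was 3.41% over all noncoding-only domains and 2.25% over all domains, and the difference of this list from them was not tested. Pax6os1 on chromosome 2 met 5 domains along 134251 bp. The residual one, of 5.1 kb, ended 0.5 kb from Pax6 and had 9.33% repeat-masked and 100% unique sequence. The slow one, of 5.4 kb, was 100% repeat-masked and had 1.85% unique 31-mers. Zmiz1os1 had a residual domain of 10.5 kb at 92.4% and an intermediate domain of 6.9 kb at 95.7% unique 31-mers. Speer4cos had a residual and a slow domain, both at 14.3%.

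Small RNA genes were met rarely as a whole and often in some families. A gene counted only where its domain met no coding gene, so those inside coding genes could not count. Annotated small RNA genes had a median length of 107 bp, against 6942 bp for lincRNA and antisense genes. The class counts are to be read beside the 76.7% intermediate, 18.1% slow and 2.25% residual of all domains. Of 5007 small RNA genes on these chromosomes, 184 (3.68%) were met. The family of 90 had 30 genes in noncoding-only domains (33.3%), in 1 fast, 19 intermediate and 8 slow domains. The Mir8117 family had 11 of 14 (78.6%), in 7 intermediate and 4 slow domains. The actin-like family had 6 of 8, in 3 intermediate, 2 slow and 1 residual domains. Smaller families not printed were also met often, such as that of Gm23952 with 3 of 5 genes, that of Gm22517 with 3 of 6 and that of Gm22815 with 7 of 27. The largest snRNA family met, with 445 annotated genes, had 13 in these domains (2.92%). With domains on coding genes included, the counts were 42 of 90, 13 of 14, 6 of 8 and, for this snRNA family, 16 of 445. Gene bodies of the families of 90 and of 14 were repeat-masked at a median of 100%, and those of the actin-like family at 0%. Family copies resembled the majority sequence at a median of 96.3%, 97.2% and 96.4% of aligned bases. Altogether 66 of 81 miRNA genes met belonged to a family of at least 2 annotated genes, compared with 651 of 1803 miRNA genes annotated. The same rule bears on this contrast, which was not tested. The families were formed from sequence after the classes had been seen.

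Named microRNA genes were met in 9 of 948 cases, in 3 intermediate, 5 slow and 1 residual domains. These counts stand beside the 76.7% intermediate, 18.1% slow and 2.25% residual of all domains. Of the 9, 8 were typed as miRNA and 7 of these had mature sequences in RefSeq for GRCm38.p6. The mature sequences are printed with the seed, bases 2 to 8, in capitals. No 2 of the 10 mature sequences shared a seed. Mir682 and Mir6380 lay in intermediate domains of 3.9 and 2.1 kb, and Mir675 in that of H19. Mir8117 lay in a slow domain of 4.2 kb and Mir101c in a slow domain of 55.8 kb near the start of chromosome 9. Mir7216 lay in a residual domain of 11.1 kb and Mir7217 in a slow one of 15.0 kb, both on chromosome 17.
mmu-miR-682: cUGCAGUCacagugaagucug
mmu-miR-6380: uGUAAGUGcuuuuaacugcugagc
mmu-miR-675-5p: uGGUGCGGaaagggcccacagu
mmu-miR-675-3p: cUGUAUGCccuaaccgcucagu
mmu-miR-8117: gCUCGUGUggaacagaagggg
mmu-miR-101c: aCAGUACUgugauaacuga
mmu-miR-7216-5p: uGGAGAGCuggcagaggacccaga
mmu-miR-7216-3p: uGGAAUUUggucuuuuccggc
mmu-miR-7217-5p: aACUUGUAucuugugagacagaagg
mmu-miR-7217-3p: uGAGAACCcacaagcaagaaga

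Other small RNA genes gave single cases. Rprl1, a relative of the RNA component of RNase P, lay in an intermediate domain of 3.9 kb, and Snord93 in one of 6.6 kb. The 5S ribosomal RNA gene n-R5s168 was the single gene met out of 110 and lay in a slow domain of 18000 bp. The ribozyme gene Gm23916 lay in a residual domain of 2.4 kb with 87.5% unique 31-mers. No gene of the 12 on the spliceosomal snRNA list was met.

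The classes differed in sequence content. Slow noncoding-only domains were repeat-masked at a median of 70.2% and had 39.4% unique 31-mers and a CpG observed over expected ratio of 0.28. Residual ones were masked at 21.7%, with 47.8% unique 31-mers and a CpG ratio of 0.175. Fast ones were masked at 40.8%, with 70.6% unique 31-mers, and intermediate ones at 59.3%, with 55.6%. The share of unique 31-mers, sampled every 100 bp, is a rough guide to how much of a domain reads could place without ambiguity. The read length was not taken into account. The sources used here do not say how reads with several matches were placed, so the class of a copy may draw on reads from other copies. The part of this in the class shares was not tested.

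Residual noncoding-only domains stood at both ends of the range of copy number. Of 135, 47 had at least 90% unique 31-mers and 45 had under 25%. The residual share was 6.70% of the 702 noncoding-only domains at the unique end and 5.42% of the 830 at the repeated end, against 0.856% of the 818 between 50 and 75%. In all domains the same bins gave 7.26%, 1.90% and 0.748%, so the unique end was close to all domains and the repeated end was higher. Among domains with at least 50% unique 31-mers, the residual share was 2.545% in pseudogene domains and 3.325% in noncoding-only domains, against 3.299% in all domains. The higher residual share of pseudogene domains thus turned into a lower one over these domains pooled, but not in each bin. At 50 to 75% unique it was 1.208%, against 0.748% in all domains, and at 75 to 90% it was 4.348%, against 1.215%. At 90% or more it was 4.938%, against 7.264%. That last bin held 81 pseudogene domains, 4 of them residual, and 6291 of all domains. Residual pseudogene domains had a median of 22.2% unique 31-mers, with 28 of 53 under 25%. Residual lincRNA/antisense domains had a median of 93.7%, with 23 of 40 at 90% or more. Residual domains outside the set had a median of 95.8%.

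**Figure D3:**
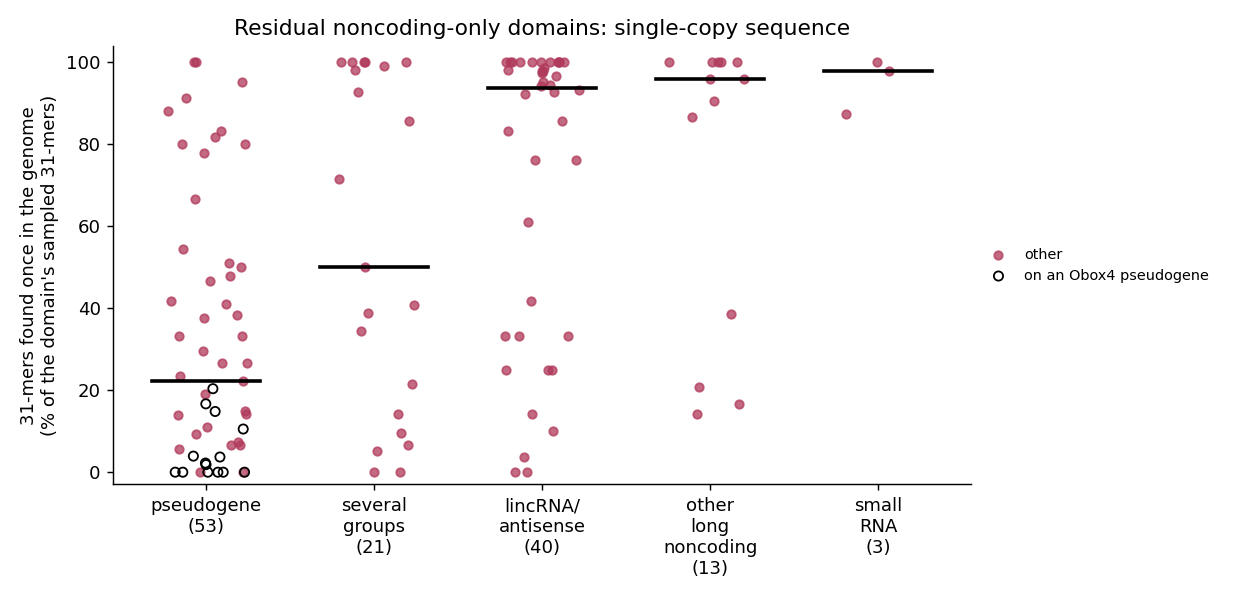
Share of 31-mers found once in the genome (y axis, percent of a domain's sampled 31-mers) for each residual noncoding-only domain, by the group of genes it met (x axis, number of domains in brackets). Each point is a domain, open circles lie on an Obox4 pseudogene, and lines are medians. Horizontal scatter is for display. The pseudogene median is 22.2% and the lincRNA/antisense median 93.7%; TEC and immunoglobulin segment domains are not drawn.

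Residual domains no more than 1 Mb apart formed 6 runs of at least 3, which held 42 of the 135. Of the 45 residual domains with under 25% unique 31-mers, 28 lay in these runs and 17 elsewhere. The run at chr7:14766301-15344700 held 15 domains on pseudogenes, all residual, with 2.22% unique 31-mers at the median. Of its domains, 14 lay on Obox4 pseudogenes and the other on Mrip-ps. The 14 copies were 97.4 to 100% identical at aligned bases, gaps left out, with a median of 99.7% over 91 pairs. Their domains were 1.2 to 5.7 kb wide. Of 38 annotated Obox4 pseudogenes, 21 met no domain and 3 lay in domains on a coding gene, which were residual as well. The run at chr4:145440001-147401700 held 13 residual domains among 32, the others being 11 slow and 8 intermediate. It included Gm26573, with 21000 bp in residual domains, C230088H06Rik, Gm26624 and Platr16.

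Smaller runs lay on chromosomes 1, 5, 12 and 7. That at chr1:84962401-85563000 held 5 residual domains of 10, among them the longest residual domain, of 48.3 kb on the processed pseudogene Gm2666, and that of 10.5 kb on Gm2427. Runs on chromosome 5, with Speer4cos, and on chromosome 12 held 3 each. The last, at chr7:79500901-79555200, held 3 domains on Mir9-3hg, the host gene of a brain microRNA, and Gm35040, and each had 100% unique 31-mers. Without the domains of the densest runs, on chromosomes 7 and 4, the residual share was 2.74% of noncoding-only domains and 2.92% of pseudogene domains, against 2.25% of all domains.

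Single-copy residual domains lay close to protein-coding genes. Among noncoding-only domains with at least 90% unique 31-mers, 24 of 47 residual ones (51.1%) were within 10 kb of a coding gene, against 81 of 554 intermediate (14.6%), 17 of 71 slow (23.9%) and 6 of 30 fast ones (20.0%). Median distances were 9.83 kb for residual, 60.7 kb for intermediate, 36.7 kb for slow and 35.5 kb for fast domains. Residual lincRNA/antisense domains had a median distance of 13.2 kb, with 18 of 40 within 10 kb, whereas intermediate ones had 92.2 kb. For pseudogenes the shares within 10 kb were 16.98% of residual and 19.74% of intermediate domains.

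Some of the nearest coding genes are named here, chosen after their classes had been seen and with no tally by function. Nkx2-2os lay 2.26 kb from Nkx2-2, Dlx6os1 9.83 kb from Dlx6, Evx1os 3.40 kb from Evx1 and Vax2os 1.66 kb from Vax2, all homeobox genes. C130021I20Rik lay 3.29 kb from the limb regulator Lmx1b, E130018O15Rik 1.41 kb from Hmx1, Gm15825 1.42 kb from Tfap2d and 9130410C08Rik 5.68 kb from the forkhead gene Foxd2. Haglr, which runs through the Hoxd cluster, lay 1.96 kb from Hoxd3, and Pantr2 6.33 kb from Pou3f3. The 2 domains of Gm16551 lay 10.1 and 1.72 kb from Onecut1. Fast single-copy domains lay beside such genes as well, with Six3os1 0.508 kb from Six3, Gm26973 1.09 kb from Nkx2-1 and D930032P07Rik 8.32 kb from Glis3. Residual single-copy domains also lay within 10 kb of genes of other kinds. These included Gm26755 at 0.616 kb from Cerkl, Gm37356 at 0.695 kb from C1ql3 and Gm42741 at 1.43 kb from Prmt8. Further cases were 5430431A17Rik at 4.24 kb from Josd2, Gm27901 at 7.94 kb from Cdkn1c and Gm13429 at 9.15 kb from Mrrf. Some residual single-copy domains were far from any coding gene, such as that on Gm18934 at 371.0 kb from Cntn5.

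Relative to their mean, residual shares varied more between chromosomes than slow shares. They rest on fewer domains, with 135 residual ones, 0 to 24 per chromosome, against 817 slow ones, 21 to 79 per chromosome. The part of counting in this spread was not tested. The slow share of noncoding-only domains ran from 16.1% on chromosome 3 to 24.9% on chromosome 9. The residual share was 7.31% on chromosome 4, 7.14% on chromosome 7 and 6.19% on chromosome 2. The other domains there had 2.72%, 2.08% and 1.69%. Of the 19 residual domains on chromosome 4, 13 lay in the run at chr4:145440001-147401700. Of the 24 on chromosome 7, 15 lay in the run at chr7:14766301-15344700. No residual domain was found among 97 on chromosome 19, where 8 (8.25%) were fast, the highest fast share. The other domains of chromosome 19 were residual in 2.5% and fast in 3.2% of cases. Chromosome 7 held 17 of the 53 residual pseudogene domains, 15 of them in the run at chr7:14766301-15344700.

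**Figure D4:**
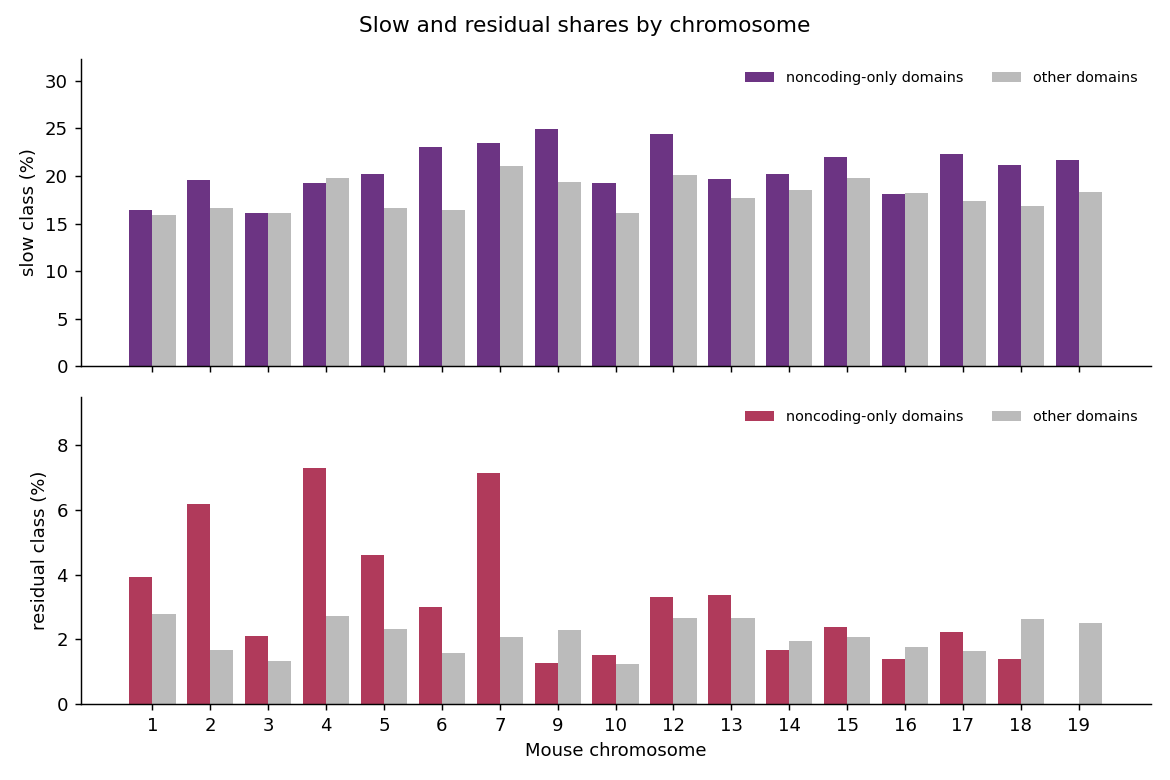
Slow (top) and residual (bottom) shares (y axis, percent of domains on the chromosome; bars start at 0) of noncoding-only domains (coloured) and of the other domains (grey) on each of 17 autosomes (x axis). The coloured slow bars run from 16.1% to 24.9%, and the coloured residual bars from 0 to 7.31%.

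Primer binding sites were found in 184 of 3957 noncoding-only domains (4.65%), against 1417 of all 34389 (4.12%). By class, 53 slow (6.49%), 128 intermediate (4.44%), 3 residual (2.22%) and 0 of 125 fast domains held a site. In all domains the shares with a site were 6.89% of slow, 3.64% of intermediate, 1.68% of residual and 1.39% of fast domains. A count of 0 of 125 allows a share of up to 2.40% by counting alone. Slow domains were wider, and per Mb covered the numbers were 8.02 for slow and 10.7 for intermediate domains. The slow share is given by tRNA, over 7 to 61 domains each, and was not tested between them. Domains with the proline site were slow in 9 of 14 cases (64.3%) and those with the phenylalanine site in 20 of 38 (52.6%). With the leucine site 4 of 11 were slow (36.4%), with the glycine site 11 of 33 (33.3%) and with the threonine site 1 of 7 (14.3%). With the isoleucine site 8 of 61 were slow (13.1%), with the glutamine site 2 of 19 (10.5%) and with the lysine site 1 of 11 (9.09%).

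In domains outside the set the slow shares were 64.6% for proline, 53.3% for phenylalanine, 33.1% for glycine, 25.5% for leucine, 15.9% for isoleucine, 11.7% for lysine, 11.2% for glutamine and 7.41% for threonine. Proline and phenylalanine were highest in both, while the order among the others differed. Widths differed between the kinds: in noncoding-only domains the median was 15.2 kb for proline, 10.2 kb for glutamine, 7.5 kb for phenylalanine and 4.5 kb for isoleucine sites. Within width bins, slow domains were 6 of 9 with a phenylalanine site and 129 of 244 without any site over 12 kb, 11 of 15 and 239 of 576 from 6.3 to 12 kb, 3 of 12 and 231 of 1104 from 3.3 to 6 kb, and 0 of 2 and 131 of 1305 from 1.8 to 3 kb. With any site, phenylalanine included, slow domains were 22 of 46 over 12 kb and 25 of 56 from 6.3 to 12 kb. They were 5 of 63 from 3.3 to 6 kb and 1 of 13 from 1.8 to 3 kb. Domains with the proline site were not split by width. Each site was searched on both strands with no mismatch, and a domain may hold sites of several kinds. A match describes the letters only.

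**Figure D5:**
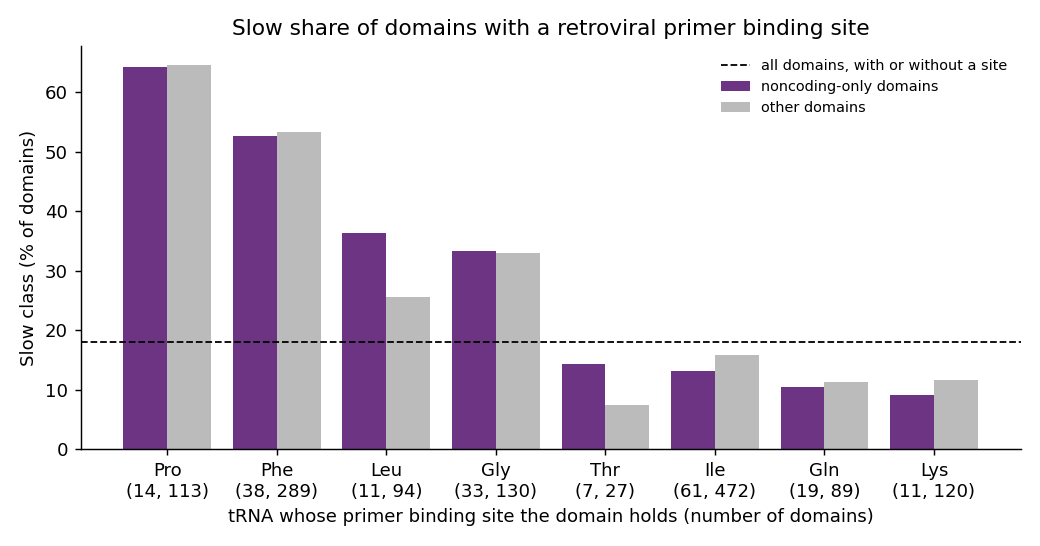
Slow share (y axis, percent of domains) of noncoding-only domains (purple) and other domains (grey) that hold a primer binding site of each tRNA (x axis, number of domains of each kind in brackets). The dashed line is the 18.1% of all domains; proline and phenylalanine bars stand at over 50% in both kinds of domain. Bars start at 0.

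The longest domains were slow. The longest of the set, of 60000 bp on a pair of lincRNAs at chr17:27247801-27307800, was slow, as were those of 56.4 kb on the TEC gene Gm38194 and of 55.8 kb on Mir101c. The longest intermediate domain, of 48.0 kb at chr10:130546801-130594800, met Gm31793, Gm23793, Gm26445 and the ferritin pseudogene Ftl1-ps2. After Gm2666, the longest residual domains, of 23.4 kb each, were on Gm3222 and on Platr16. The longest fast domain, of 11.7 kb, lay on the processed pseudogene Gm15442.

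The rule of a 1 bp overlap set its edge as follows. Domains that met no gene by more than 300 bp numbered 390 and comprised 16 fast, 276 intermediate, 88 slow and 10 residual ones. Domains just outside, on no gene and at most 300 bp from a noncoding one, numbered 131 and comprised 3 fast, 96 intermediate, 29 slow and 3 residual ones. The slow shares were 22.6% inside and 22.1% outside the edge.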

How the data were processed

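The deposited data used were the authors' table of H3K9me3 domains, whose decay class is a word, not a score with a scale; the HP1β and signal tracks were not analysed here. Per the submitters' processing notes, Bowtie2 2.3.4.1, SAMtools 1.1, deepTools and bedtools were used, with the builds mm10, dm6, mm9 and GRCm38. The sources used here do not give the domain calling, spike-in scaling or class limits. Starts and ends were multiples of 300 bp, and 0 domains ran past a GRCm38.p6 chromosome end. Genes and gene types were from GENCODE vM21. A domain belonged to a group where all its genes did. GC content, CpG ratio, soft-masked share and copies of 31-mers were computed with Python 3.11.15, numpy 2.4.6, pandas 2.3.3 and numba 0.67.0, copies were aligned with MAFFT 7.526, and the overlap step was tested on simulated data. Primer sites came from 403 tRNA genes, which gave 124 distinct sites; 2 shared by different amino acids were left out. Small RNA genes sharing at least 30% of their 11-mers, and at least 10, formed a family. Named genes are, for each group and class, the 3 with most bases in domains of that class, up to 3 per gene list out of 23 lists, and the 5 longest domains per class; others are said to be chosen after seeing the data. The domains and lists were chosen with earlier results of these data known. No test was made, since the table has 0 columns with values per sample.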

Additional observations from a re-analysis of the deposited data

How the results depend on the processing

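Shares of fast, slow and residual domains were recomputed for all noncoding-only domains and for the pseudogene, lincRNA/antisense and small RNA groups. Of 147 alternative values, 120 lay within the counting interval of the share as reported and 27 outside it. With shares of covered bases in place of domains, the fast share was 2.092% of all and 1.823% of pseudogene domains, and the slow share was 33.73% of all, 35.21% of pseudogene, 29.16% of lincRNA/antisense and 45.1% of small RNA domains, against 2.259% fast and 29.61% slow bases in all domains. With at least 50% of a domain in noncoding gene bodies, slow shares were 18.53% (all) and 20.31% (pseudogene). With the domain midpoint in a gene body, they were 18.41% (all) and 19.39% (pseudogene), and the fast and residual shares of small RNA domains, which rest on 3 domains each, were 0.0%. Standardised to the widths of all domains, slow shares were 17.77% (all), 16.54% (pseudogene) and 17.13% (small RNA), against 18.12% in all domains. In domains with at least 50% unique 31-mers, slow shares were 13.0% (all), 14.73% (pseudogene), 11.69% (lincRNA/antisense) and 14.71% (small RNA). The slow share of all such domains, on any gene or none, was 11.42%. The residual share of pseudogene domains was 2.545%, against 3.299% in all such domains. The pseudogene residual share was the lower one over these domains pooled. It was the higher one in the bins of 50 to 75% and 75 to 90% unique 31-mers. With chromosomes 8, 11, X and Y added, slow shares were 22.77% (all) and 21.46% (lincRNA/antisense), and residual shares 5.969% (all), 7.43% (pseudogene) and 4.21% (lincRNA/antisense), against 20.45% slow and 4.57% residual in all domains. Without the 2 densest runs of residual domains, an alternative chosen after seeing the data, residual shares were 2.737% (all) and 2.924% (pseudogene). The cause of these differences was not tested. Leaving out each chromosome in turn gave slow shares of 20.33 to 21.0% (all), 22.25 to 23.67% (pseudogene), 17.79 to 18.68% (lincRNA/antisense) and 23.33 to 26.5% (small RNA), and residual shares of 3.364 to 4.505% for pseudogene domains. Small RNA domains gave no value at 50% of the domain or without automatically annotated genes, since none remained. No paired analysis was possible because the table holds no value per sample.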
